A study of Mus musculus with 18 samples.

Results

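Gene expression was compared between day 3 myotubes of 2 lines derived from C2C12, an immortalised mouse myoblast line that proliferates in serum-rich medium and fuses into multinucleated myotubes in low-serum medium. The libraries were chosen by their labels: 3 were labelled Dlk1-Dio3 overexpressor and 3 were labelled Dlk1-Dio3 knockout, which makes 6 of the 18 libraries of the study. Each line was grown from a single cell after transfection with Cas9 and pairs of guide RNAs against the Meg3 promoter. The overexpressor and the knockout are therefore 1 clone each, so that the edit and other properties of the clone cannot be told apart. The control C2C12 cells had received the empty pX458 vector, which carries Cas9 and a fluorescent marker, and were sorted as a population and not cloned. Their day 3 myotubes and the myoblasts of all 3 lines, with 3 libraries a group, are given only for reference. The labels do not say whether the 3 libraries of a group came from separate cultures. The p-values therefore measure only the spread between libraries, estimated over all 18 in 1 fit.

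The Dlk1-Dio3 region of mouse chromosome 12 is imprinted, meaning that the copies inherited from each parent are used differently. The maternal copy normally makes the noncoding RNAs Meg3, Rian and Mirg, which carry a large cluster of microRNAs and small nucleolar RNAs, and the paternal copy normally makes the protein-coding genes Dlk1, Rtl1 and Dio3. Meg3 RNA is abundant in embryonic muscle and in muscle progenitors, and it has been studied as a partner of the Polycomb repressor complexes. Myotube formation itself follows a known order: the factors Myf5 and Myod1 mark committed myoblasts, Myog starts the differentiation programme with the cell cycle inhibitor Cdkn1a, the membrane proteins Mymk and Mymx drive fusion, and contractile genes follow.

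The guides were directed at the promoter of Meg3, so the windows around its 2 annotated start sites in RefSeq (GRCm38.p6, 250 bases before to 50 after the start) are shown first, in lower case and 5′ to 3′ along the gene.

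Meg3, site 1, chr12:109540746-109541045, plus strand: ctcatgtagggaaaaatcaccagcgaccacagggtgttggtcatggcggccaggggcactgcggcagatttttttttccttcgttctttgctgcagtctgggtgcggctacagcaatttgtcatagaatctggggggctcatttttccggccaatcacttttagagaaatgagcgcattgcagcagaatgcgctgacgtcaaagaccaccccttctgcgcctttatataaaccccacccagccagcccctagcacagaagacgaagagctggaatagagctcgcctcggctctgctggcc

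Meg3, site 2, chr12:109545148-109545447, plus strand: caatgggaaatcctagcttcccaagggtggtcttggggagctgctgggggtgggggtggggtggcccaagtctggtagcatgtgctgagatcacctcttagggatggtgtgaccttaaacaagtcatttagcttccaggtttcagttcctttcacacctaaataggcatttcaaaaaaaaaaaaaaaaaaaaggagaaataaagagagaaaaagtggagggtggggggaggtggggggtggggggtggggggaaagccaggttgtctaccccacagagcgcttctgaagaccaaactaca

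Their GC content was 53.7 and 50.3%. The sequence of the edited alleles in the clones was not analysed here.

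Meg3, Rian and Mirg were expressed in the overexpressor and were at or near 0 in the knockout. Meg3 had 5222, 7763 and 7434 reads in the overexpressor libraries A, B and C and no read in any of the 3 knockout libraries. With the knockout set at its floor of 3 reads a library, Meg3 was at least 1477-fold higher in the overexpressor, at 92.6 ± 13.4 CPM (reads scaled to the depth of the library; mean ± SD, n = 3 here and below). Rian had 8206, 11117 and 13241 reads against 4, 4 and 1, a ratio of 2741 with a 95% interval of 1444 to 5995 that covers counting error only. Mirg, the host of many of the microRNAs, had 714, 839 and 717 reads against none and was at least 165-fold higher. Control myotubes had no read of Meg3, Rian or Mirg either, so the 3 RNAs set the overexpressor apart from both other lines and did not separate the knockout from the control. In myoblasts Meg3 stood at 133 ± 22.9 CPM in the overexpressor and at 0 in the knockout.

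Of the 9 genes of the region and its flanks that passed the filter on low counts, 5 were higher in the overexpressor and 1 was lower. The protein-coding genes of the region were silent or close to it. Dlk1 and Dio3 were at or under the floor in both clones. Rtl1, which encodes a retrotransposon-derived protein, was read at 41, 34 and 31 reads in the knockout and 4, 3 and 2 in the overexpressor, and was lower in the overexpressor (log2 difference -3.88 ± 0.45, adjusted p = 6.44e-06). Rtl1 lies antisense to microRNA precursors of the maternal transcript, and whether reads were counted by strand is not given. The maternal RNAs Meg3 and Mirg had no read in the knockout, the clone with more Rtl1 reads. The strand of the Rtl1 reads was not tested. Of the genes beside the region, Ppp2r5c, a phosphatase subunit, stood at 152 ± 12.4 CPM against 101 ± 7.00 and was higher (log2 difference 0.59 ± 0.069, adjusted p = 1.48e-06), and Wdr25 was slightly higher (log2 difference 0.28 ± 0.11, adjusted p = 0.0298). The call of Wdr25 ended without overexpressor A or B or knockout A or B, with adjusted p-values of 0.0942, 0.07, 0.0624 and 0.113. It also ended with DESeq2 size factors and in the fit of the 6 myotube libraries (edgeR adjusted p = 0.0545 and 0.0648). Wars and Dync1h1 had log2 differences of 0.17 and 0.089 that did not pass the threshold (adjusted p = 0.0587 and 0.317).

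Read depth in the 6 libraries ran from 52718190 to 79140702 reads assigned to genes. The first principal component separated the lines and held 77.8% of the variance. On the second, which held 9.82%, overexpressor C (at -35.0) stood apart from overexpressor A and B (at 22.1 and 22.7), and knockout A was at -29.1. The biological coefficient of variation was 19.4% among overexpressor libraries and 12.5% among knockout libraries. It was lower in control myotubes (9.23%) and in overexpressor, knockout and control myoblasts (11.5, 4.27 and 6.51%). The p-values rest on a spread estimated over all these groups together. The 11 myotube markers, none at 0, summed to 20279.6 to 20862 CPM in control and 33521 to 36279.6 in overexpressor myotubes. In knockout myotubes they summed to 46019 to 54443. The actins Acta1 and Actc1 alone held 8589 and 2319 CPM on average in the overexpressor and 15719.9 and 6721 in the knockout. Of the 11 markers, 6 were lower in the overexpressor, 1 was higher and 4 did not pass. With the offset for GC content and length described below, 3 were lower, 2 higher and 6 did not pass. The 5 markers of proliferating myoblasts summed to 157 to 212 CPM in overexpressor and 143 to 195 in knockout libraries, which overlap. Of 26 markers of lineages outside muscle, 9 passed the filter on low counts. Of these, 2 were higher in the overexpressor and 4 were lower, with a median log2 difference of -0.89. The 26 summed to 35.6 to 42.5 CPM in the overexpressor against 7.75 to 9.07 in the knockout. The overexpressor sum was mostly Map2, described below, and Tubb3 (20.9 ± 2.56 against 3.12 ± 0.243 CPM). In each library 10 to 15 of the 26 had no read. Of the 158 genes named here, 48, Meg3, Map2 and Mybpc1 among them, have an exon that overlaps a gene on the other strand, and whether reads were counted by strand is not given in the sources used here. These were bulk cultures, in which a difference in the number of myotubes and a difference in RNA per myotube cannot be told apart.

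Of 17912 genes tested, 5475 were higher in the overexpressor (30.6%) and 5217 were lower (29.1%) at an adjusted p under 0.05, 59.7% in all, with a median log2 difference of 0.021. Without overexpressor C the shares were 27.2% and 24.1%. A fit of only the 6 myotube libraries of the clones called 8392 genes in place of 10692. In the myoblasts of the same clones 25.7% of genes were higher in the overexpressor and 26.9% lower, 52.6% in all. A difference of at least 2-fold was seen for 1960 higher and 1358 lower genes (10.9% and 7.58%). The 6 libraries do not overlap between the clones for 60.0% of genes. Any gene list is read below against these shares, since most genes differed.

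The differences in myotubes followed the base composition of the transcripts. Genes were placed in 10 bins of equal size by the GC content of their transcripts. In bin 1, the lowest (median 39.6%), 62.1% were higher in the overexpressor and 5.25% were lower, with a median log2 difference of 0.83. In bin 10, the highest (median 59.6%), 15.5% were higher and 44.4% were lower, with a median of -0.24. Myoblasts of the same clones had medians of -0.035 and 0.087 in these bins. By library, bin 1 stood at -0.15, -0.11 and 0.48 in overexpressor A, B and C and at -0.24, -0.51 and -0.60 in knockout A, B and C, as log2 deviations from the mean of all libraries. A fit with an offset for transcript GC content and length, added after the trend was seen and called the offset fit below, kept 3030 of the 3318 genes that differed by at least 2-fold and turned none of them. It kept 8130 of all 10692 genes called and called 145 in the opposite direction, and itself called 57.9% of genes, 28.7% higher and 29.2% lower. Differences under 2-fold are therefore given below with their value in the offset fit wherever it ends the call, turns it or moves it by more than 1.5 times. Of the neighbours of the Meg3 region, it put Ppp2r5c at 0.38 and Wdr25 at 0.44, and called Wars higher at 0.40 (adjusted p = 1.89e-07). Whether the trend arose in the cells or in the libraries was not tested.

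**Figure D1:**
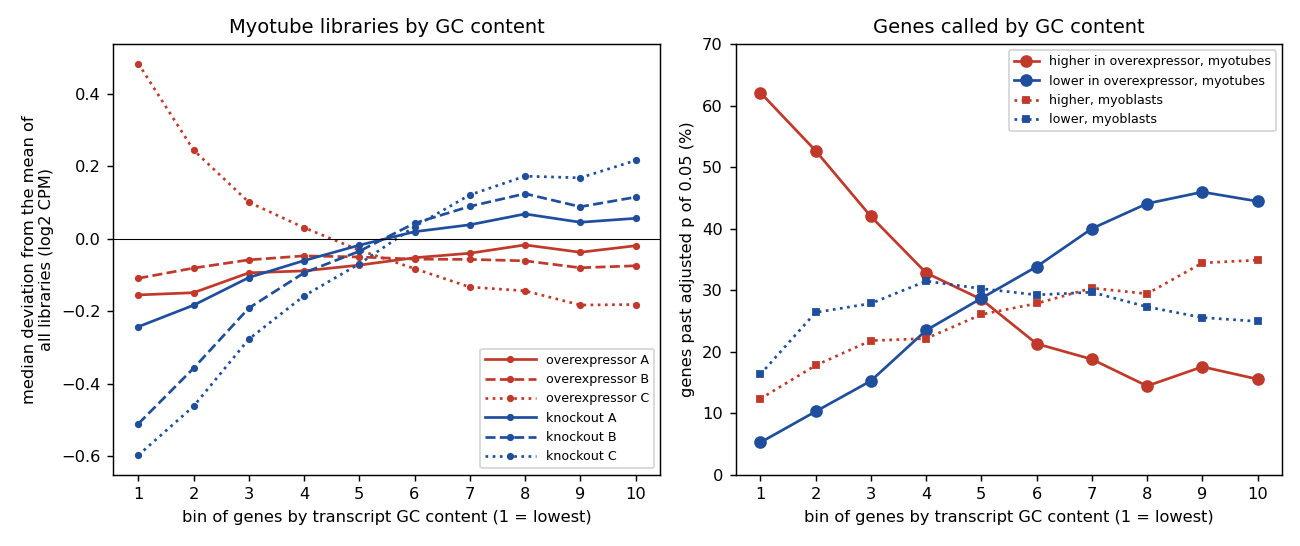
Left, the median deviation (log2 CPM) of each of the 6 myotube libraries from the mean of all libraries, for 10 bins of genes by transcript GC content; right, the share of genes (%) past the threshold in each direction, in myotubes and myoblasts. Overexpressor C rises to 0.48 in bin 1 while the knockout libraries fall to between -0.24 and -0.60, and the shares called cross in the middle bins for myotubes.

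A small set of genes was on in one clone and off in the other. In myotubes 9 genes reached at least 5 CPM in the overexpressor with the knockout at or under its floor, and for 8 of them this held in the myoblasts too. Besides Meg3 and Mirg these were Map2, Parp11, Igfbp3, Plxdc2, Zfp422, Cnr1 and AA414768; the last 2 were named here after their values were seen. Map2, a neuronal microtubule-associated protein, stood at 11.7, 12.5 and 19.5 CPM in overexpressor A, B and C and had no read in the knockout, at least 232-fold, with 1.51 ± 0.577 CPM in the control. Parp11, an enzyme that adds ADP-ribose to proteins, stood at 6.29 ± 0.531 CPM against no read and at 12.8 ± 0.529 in the control, so the knockout was the line without it. Igfbp3, a secreted binding protein for insulin-like growth factors, stood at 17.7, 19.3 and 16.2 CPM against 0, 0.0335 and 0, with 142 ± 4.10 in the control. Zfp422 was likewise near absent only in the knockout, at 8.37 ± 1.324 CPM in the overexpressor, 0.0171 ± 0.0296 in the knockout and 8.23 ± 1.00 in the control. Plxdc2, a transmembrane protein, was instead low in both other lines, at 11.3 ± 2.55 CPM against 0.0184 ± 0.0172 in the knockout and 0.107 ± 0.0809 in the control. Of the 9 genes, 4 were at 5 CPM or more in the control and 2 were at or under its floor.

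In the other direction, Mageb4 and Tnmd were expressed in the knockout and at the floor in the overexpressor. Tnmd, tenomodulin, a membrane protein of tendon cells, stood at 12.1, 12.7 and 10.7 CPM in knockout A, B and C and 0, 0.0250 and 0.0278 in the overexpressor, with 0.0925 ± 0.0208 in the control (log2 difference -9.17 ± 0.30, adjusted p = 1.71e-13). Mageb4, a member of the X-linked MAGE family whose close copies make its reads uncertain, stood at 6.80 ± 0.540 against 0.00958 ± 0.00831 CPM. Sfrp2, a secreted Wnt modulator, stood at 699 ± 66.9 CPM in the control, 43.0 ± 4.599 in the knockout and 0.344 ± 0.198 in the overexpressor (overexpressor against knockout: log2 difference -6.92 ± 0.22, adjusted p = 9.28e-13). Fgf9, a growth factor (log2 difference -7.42 ± 0.30, adjusted p = 2.28e-12), Crym, a thyroid hormone-binding protein (log2 difference -7.41 ± 0.28, adjusted p = 7.59e-12), and Ramp3, a receptor-modifying protein (log2 difference -6.96 ± 0.24, adjusted p = 3.52e-13), were each above 5 CPM only in the knockout of the 3 lines. Further large differences were higher Sirpa (log2 difference 8.90 ± 0.62, adjusted p = 2.18e-08), an inhibitory receptor, and Mal (log2 difference 8.06 ± 0.53, adjusted p = 7.82e-09), a membrane protein of lipid rafts, and lower Rtl3, Abca9, Mep1a and Tnfrsf19, whose log2 differences ran from -8.26 to -5.86.

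Regulators of the muscle programme were mostly lower in the overexpressor myotubes. Of 28 myogenic regulators, 15 were lower and 3 higher, with a median log2 difference of -0.35 against 0.021 over all genes, and 20 and 3 in the offset fit. Myf6 (MRF4), the regulator that normally rises in maturing myofibres, had the largest difference. It stood at 0.609, 0.375 and 0.695 CPM in overexpressor A, B and C and at 11.1, 11.1 and 10.6 in the knockout, with no overlap (log2 difference -4.29 ± 0.18, adjusted p = 3.44e-12), and at 2.53 ± 0.327 in the control. Id3, which binds E proteins and restrains Myod1, stood at 5.54 ± 1.61 CPM against 45.6 ± 2.76 (log2 difference -3.04 ± 0.15, adjusted p = 1.05e-10), while its relative Id2 was higher at 33.5 ± 2.53 against 13.5 ± 1.14 (log2 difference 1.31 ± 0.086, adjusted p = 1.02e-09). The satellite cell factor Pax7 stood at 4.17 ± 0.566 CPM against 12.6 ± 1.53 (log2 difference -1.60 ± 0.10, adjusted p = 3.31e-10), and Pitx3, a homeobox factor of differentiating muscle, at 3.68 ± 0.813 against 13.0 ± 0.461 (log2 difference -1.81 ± 0.16, adjusted p = 6.24e-08). Hdac9, a repressor of Mef2 proteins, was higher at 6.56 ± 1.63 CPM against 2.74 ± 0.662 (log2 difference 1.26 ± 0.22, adjusted p = 9.86e-05; 0.82 in the offset fit).

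The central switch factors differed little by comparison. Myod1 stood at 299, 264 and 234 CPM against 354, 378 and 423 and was lower (log2 difference -0.53 ± 0.10, adjusted p = 0.000141); the offset fit gave -0.26. Myog stood at 2007, 1899 and 1659.9 CPM in the overexpressor, 2359.7, 2522 and 2714 in the knockout and 1732 ± 59.6 in the control, and was lower (log2 difference -0.45 ± 0.14, adjusted p = 0.00967). The call for Myog ended in the offset fit (log2 difference -0.19, adjusted p = 0.106) and without overexpressor C (-0.35, adjusted p = 0.0681). It also ended with no filter, without both overexpressor C and knockout A, and in the offset fit without overexpressor C (edgeR adjusted p = 0.0503, 0.0579 and 0.231). Myf5 and Mef2c, whose libraries overlap between the clones, had log2 differences of 0.052 and 0.058 that did not pass (adjusted p = 0.828 and 0.856). Both transcripts are poor in GC (41.6 and 40.8%), and the offset fit called both lower, at -0.51 (adjusted p = 0.00037) and -0.76 (adjusted p = 6.64e-07). Among 18 genes of reserve and progenitor cells 5 were higher and 6 lower (median 0.061, -0.028 in the offset fit). Cd34 stood at 17.5 ± 1.36 CPM against 3.97 ± 0.0864, but at 172 ± 5.57 in the control, and Heyl, a Notch target, at 9.89 ± 1.60 against 31.2 ± 4.50 (log2 difference -1.66 ± 0.18, adjusted p = 1.67e-06) and 76.8 ± 6.55 in the control.

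**Figure D2:**
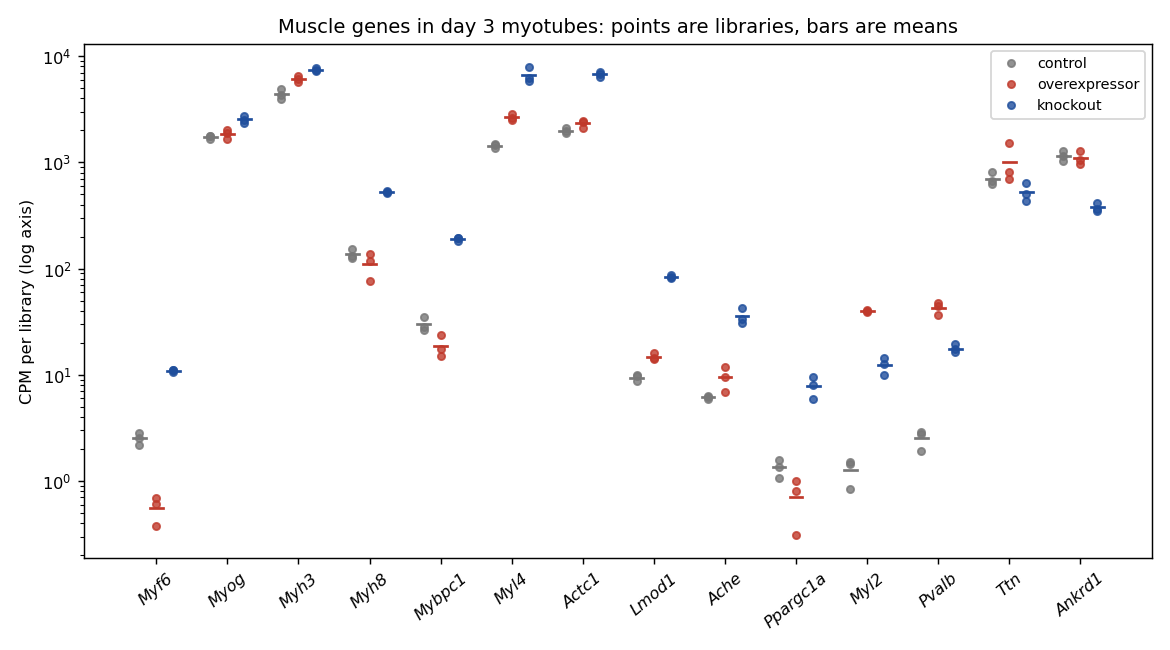
CPM (log axis) of 14 genes of the muscle programme in the 9 myotube libraries; points are libraries and bars are group means. Myf6, Myh8, Mybpc1, Lmod1 and Actc1 of the overexpressor lie below the knockout without overlap, Myl2, Pvalb and Ankrd1 lie above it, and Myh3 differs little between the clones.

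Most contractile genes that differed were lower in the overexpressor, with a few higher. Of 10 myosin heavy chains 5 were lower and the others did not pass (median -0.52). Myh8, the perinatal heavy chain, stood at 118, 76.3 and 137 CPM in overexpressor A, B and C against 524, 519 and 538 in the knockout (log2 difference -2.25 ± 0.18, adjusted p = 8.61e-08), close to the 136 ± 15.2 of the control. Myh3, the embryonic chain and the most abundant in CPM of those named here, stood at 6111, 5721 and 6467 against 7297, 7434 and 7668, a log2 difference of -0.29 that did not pass (adjusted p = 0.2). Myh7, the slow chain, was lower at 526 ± 29.9 against 879 ± 60.8 CPM (log2 difference -0.74 ± 0.16, adjusted p = 0.00127), and so was its neighbour Myh6 (log2 difference -0.78 ± 0.18, adjusted p = 0.0015); the 2 genes are near copies, and their reads may be shared. Among 14 light chains and myosin-binding proteins, 9 were lower and 3 higher (median -0.56). Mybpc1, a myosin-binding protein of slow fibres, stood at 17.7, 14.9 and 23.4 CPM against 194, 182 and 194 (log2 difference -3.35 ± 0.20, adjusted p = 1.49e-09). Myl4, the embryonic and atrial essential light chain, stood at 2667 ± 182 against 6605 ± 1085 (log2 difference -1.31 ± 0.19, adjusted p = 2.88e-05). The kinases Mylk and Mylk3, which phosphorylate light chains, were lower by -2.76 ± 0.12 and -3.51 ± 0.21 on the log2 scale (adjusted p = 7.71e-12 and 2.7e-10). The higher members were Myl2, the slow and ventricular regulatory light chain, at 40.4, 38.6 and 39.6 CPM against 12.5, 9.88 and 14.5 (log2 difference 1.69 ± 0.20, adjusted p = 5.51e-06), Mybpc2, its fast-fibre counterpart among binding proteins, at 35.0 ± 7.07 against 16.2 ± 1.11 (log2 difference 1.11 ± 0.16, adjusted p = 1.09e-05), and Myl3, the slow and ventricular essential light chain, named here after its value was seen because it stood under 5 CPM.

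The thin filament repeated this mixed picture. Of 25 members 16 were lower and 7 higher (median -0.45; 14 and 7, with a median of -0.27, in the offset fit). Actc1, the cardiac actin, stood at 2461, 2381 and 2115 CPM against 6326, 6779 and 7059, with no overlap (log2 difference -1.54 ± 0.13, adjusted p = 5.91e-08), and at 1991 ± 98.0 in the control. Acta1, the adult skeletal actin, stood at 8589 ± 1044 against 15719.9 ± 1721 (log2 difference -0.87 ± 0.23, adjusted p = 0.00432). Troponin C2 stood at 1531 ± 98.3 against 2516 ± 275 (log2 difference -0.72 ± 0.16, adjusted p = 0.00147). For troponin C2 the offset fit gave -0.40 (adjusted p = 0.0172). Lmod1, a leiomodin that nucleates actin filaments, stood at 16.0, 14.1 and 14.4 CPM against 80.6, 83.8 and 87.1 (log2 difference -2.50 ± 0.090, adjusted p = 5.97e-13), whereas the sarcomeric leiomodin Lmod3 was higher at 325 ± 65.2 against 182 ± 18.4 (log2 difference 0.84 ± 0.16, adjusted p = 0.000434). Tnnt1, slow troponin T, was higher at 1862 ± 98.8 against 1372 ± 109 (log2 difference 0.44 ± 0.10, adjusted p = 0.00149; 0.72 in the offset fit), and Tpm4, a tropomyosin of nonmuscle filaments, was higher at 359 ± 33.5 against 179 ± 21.2 (log2 difference 1.01 ± 0.094, adjusted p = 8.21e-08). Of 32 Z-disc and M-band genes 14 were lower and 7 higher, with a median of -0.12, which was 0.0036 in the offset fit and -0.081 without overexpressor C. Myoz1, a calcineurin-binding Z-disc protein (log2 difference -2.32 ± 0.17, adjusted p = 2.96e-09), and Flnc, filamin C (log2 difference -0.996 ± 0.080, adjusted p = 1.28e-08), were lower, and the stretch-responsive Ankrd1 (log2 difference 1.55 ± 0.13, adjusted p = 5.64e-08) and Ankrd2 (log2 difference 1.26 ± 0.17, adjusted p = 1.04e-05) were higher. Titin (Ttn), the giant spring of the sarcomere, stood at 817, 699.5 and 1517 CPM in overexpressor A, B and C and 638, 500.1 and 430.3 in the knockout (log2 difference 0.95 ± 0.27, adjusted p = 0.00754), and the offset fit gave 0.59. Overexpressor C had the highest Ttn level of the 6 libraries, and without it the log2 difference was 0.57 (adjusted p = 0.0394). Among 29 smooth muscle genes and targets of serum response factor 12 were lower and 7 higher (median -0.29, -0.079 in the offset fit and -0.14 without overexpressor C). Actg2, enteric smooth muscle actin, stood at 88.3 ± 10.6 CPM against 379 ± 37.4 (log2 difference -2.10 ± 0.15, adjusted p = 1.61e-08) and 10.4 ± 3.42 in the control, and Tagln, transgelin, at 269 ± 21.8 against 560.1 ± 43.7 (log2 difference -1.06 ± 0.12, adjusted p = 9.86e-07).

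Genes of excitation and calcium release, of the nerve contact and of fusion showed few large differences. Of 31 calcium handling genes 13 were lower and 6 higher (median -0.19; 9 and 5, with a median of -0.10, in the offset fit). Cacng6, a subunit of the voltage-gated calcium channel, stood at 0.505, 0.775 and 0.778 CPM against 15.2, 14.5 and 18.4 (log2 difference -4.53 ± 0.24, adjusted p = 2.83e-10). Its relative Cacng1 was lower as well, at 353 ± 25.05 against 728 ± 75.6 (log2 difference -1.04 ± 0.10, adjusted p = 7.02e-08), and so was Kcnj2, the potassium channel that hyperpolarises fusing myoblasts (log2 difference -1.79 ± 0.27, adjusted p = 4.79e-05). Pvalb, parvalbumin, the calcium buffer of fast fibres, was higher at 47.3, 36.8 and 44.3 CPM against 16.3, 17.3 and 19.3 (log2 difference 1.28 ± 0.13, adjusted p = 2.46e-07). At the neuromuscular junction 8 of 19 genes were lower and 7 higher (median -0.082, -0.041 without overexpressor C). Ache, acetylcholinesterase, stood at 9.46 ± 2.46 CPM against 35.7 ± 6.33 (log2 difference -1.92 ± 0.17, adjusted p = 5.12e-08) and its collagen tail Colq at 11.5 ± 1.92 against 31.3 ± 3.35 (log2 difference -1.45 ± 0.15, adjusted p = 4.32e-07). Of 26 fusion genes 9 were lower and 6 higher. The fusogens Mymk, at 1421, 1247 and 1188 against 1497, 1603 and 1936 CPM, and Mymx, at 226, 209 and 196 against 213, 225 and 253, had log2 differences of -0.38 and -0.13 that did not pass (adjusted p = 0.0552 and 0.353). The offset fit called Mymx higher, at 0.19 (adjusted p = 0.0392). Cav3, muscle caveolin (log2 difference -0.83 ± 0.12, adjusted p = 2.83e-05; -0.52 in the offset fit), and Ephb1, an ephrin receptor (log2 difference -2.53 ± 0.20, adjusted p = 1.31e-08), were lower, and Cdh2, N-cadherin (log2 difference 0.81 ± 0.087, adjusted p = 4.79e-07), was higher.

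Myogenic factors bind the E-box, and the letters CAGCTG are the form they favour. This 6-letter motif reads the same on both strands and was searched in 300-base RefSeq promoter windows. It was present for 18.8% of the 11508 tested genes with a matched window, 24.1% of 903 genes lower by at least 2-fold and 18.5% of 1277 genes higher by at least 2-fold. In the lists of contractile, calcium and junction genes it was present for 21 of 46 genes that were lower (45.7%) and 18 of 52 that were not (34.6%). The windows of the 4 lower members of these lists with the smallest adjusted p among those holding the motif follow, with the motif in capitals (RefSeq, GRCm38.p6).

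Lmod1, chr1:135324563-135324862, plus strand: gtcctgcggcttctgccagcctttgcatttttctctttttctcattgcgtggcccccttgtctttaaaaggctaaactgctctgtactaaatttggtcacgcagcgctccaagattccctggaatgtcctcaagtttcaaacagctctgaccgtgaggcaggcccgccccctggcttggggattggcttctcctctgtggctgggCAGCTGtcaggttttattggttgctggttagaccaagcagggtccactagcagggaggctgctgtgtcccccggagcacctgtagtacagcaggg

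Mybpc1, chr10:88605103-88605402, minus strand: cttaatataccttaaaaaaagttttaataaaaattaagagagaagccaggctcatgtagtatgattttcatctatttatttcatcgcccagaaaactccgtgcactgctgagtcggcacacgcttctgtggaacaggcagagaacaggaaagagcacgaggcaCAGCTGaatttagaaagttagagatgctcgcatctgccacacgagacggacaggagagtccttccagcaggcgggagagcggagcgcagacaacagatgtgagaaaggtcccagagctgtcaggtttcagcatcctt

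Etv5, chr16:22439521-22439820, minus strand: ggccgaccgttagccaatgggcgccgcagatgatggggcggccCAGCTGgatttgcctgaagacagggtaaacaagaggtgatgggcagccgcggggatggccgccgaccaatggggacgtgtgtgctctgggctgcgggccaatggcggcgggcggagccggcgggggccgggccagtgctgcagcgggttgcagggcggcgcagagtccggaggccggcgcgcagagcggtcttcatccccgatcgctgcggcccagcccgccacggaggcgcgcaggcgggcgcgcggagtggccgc

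Tpm3, chr3:90072401-90072700, plus strand: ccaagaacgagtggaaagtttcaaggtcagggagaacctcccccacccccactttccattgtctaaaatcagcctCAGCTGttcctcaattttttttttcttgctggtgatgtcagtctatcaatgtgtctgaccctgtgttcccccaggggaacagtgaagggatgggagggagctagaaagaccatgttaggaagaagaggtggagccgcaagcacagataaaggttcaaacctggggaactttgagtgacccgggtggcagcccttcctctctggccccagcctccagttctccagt

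The motif starts 45 bases before the start site in Lmod1, 87 in Mybpc1, 207 in Etv5, an ETS factor of the junction list (log2 difference -0.79 ± 0.071, adjusted p = 6.25e-08), and 175 in Tpm3, whose muscle form is the slow tropomyosin (log2 difference -0.51 ± 0.051, adjusted p = 1.86e-07). A match of letters is a description and shows no binding.

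The same clones differed far more in muscle genes as myoblasts than as myotubes. In myoblasts the median log2 difference was -6.18 for myosin heavy chains, -3.89 for light chains, -2.87 for the thin filament, -1.99 for the Z-disc and M-band and -1.66 for calcium handling, against -0.52, -0.56, -0.45, -0.12 and -0.19 in myotubes (-0.39, -0.47, -0.27, 0.0036 and -0.10 in the offset fit). Some members were at or near 0 in overexpressor myoblasts, among them Cacng6 (0 against 2.52 CPM) and Ankrd2 (0.188 against 10.6). The size of such log2 differences, and of differences between stages that use them, is uncertain. The test of the difference between stages called 8370 genes (46.7%). It took the change on differentiation in the overexpressor minus that in the knockout. It was past the threshold with a larger rise in the overexpressor for 9 of 10 heavy chains, 9 of 14 light chains, 21 of 25 thin filament genes, 24 of 32 Z-disc and M-band genes and 23 of 31 calcium genes, against 24.3% of all genes. Myh3 shows the pattern. It stood at 42.5 ± 13.3 CPM in overexpressor myoblasts, 3202 ± 459 in knockout myoblasts and 47.2 ± 12.04 in control myoblasts, while its myotube levels did not differ past the threshold; the change on differentiation differed by 5.94 ± 0.29 on the log2 scale (adjusted p = 5.78e-10). Tnnt2, cardiac troponin T, stood at 51.2 ± 1.86 CPM in overexpressor, 1004 ± 93.6 in knockout and 107 ± 12.1 in control myoblasts, and at 3010.3 ± 121 and 3979.7 ± 121 in their myotubes (difference of the changes 3.89 ± 0.13, adjusted p = 5.96e-13). Ckm, muscle creatine kinase, stood at 10.1 ± 3.42, 283 ± 33.0 and 6.04 ± 1.40 CPM in overexpressor, knockout and control myoblasts, and at 1460.2 ± 138 and 2155 ± 345 in the myotubes of the clones. In myotubes Ckm was lower (log2 difference -0.56 ± 0.19, adjusted p = 0.0223), a call that ended in the offset fit (-0.30, adjusted p = 0.102) and without overexpressor B, overexpressor C or knockout C (-0.54, -0.48 and -0.43, adjusted p = 0.0577, 0.0839 and 0.108). The Ckm call also ended with no filter, without both overexpressor C and knockout A, and in the offset fit without overexpressor C (edgeR adjusted p = 0.0722, 0.0587 and 0.186). For these 3 genes the knockout myoblasts, still in growth medium, lay above the myoblasts of both other lines. So did Cdkn1a, at 1564 ± 108 CPM in knockout, 401 ± 46.5 in overexpressor and 237 ± 19.5 in control myoblasts. The mitotic kinase Cdk1 stood at 184 ± 12.7, 200 ± 6.93 and 177 ± 3.59 CPM in the same order.

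**Figure D3:**
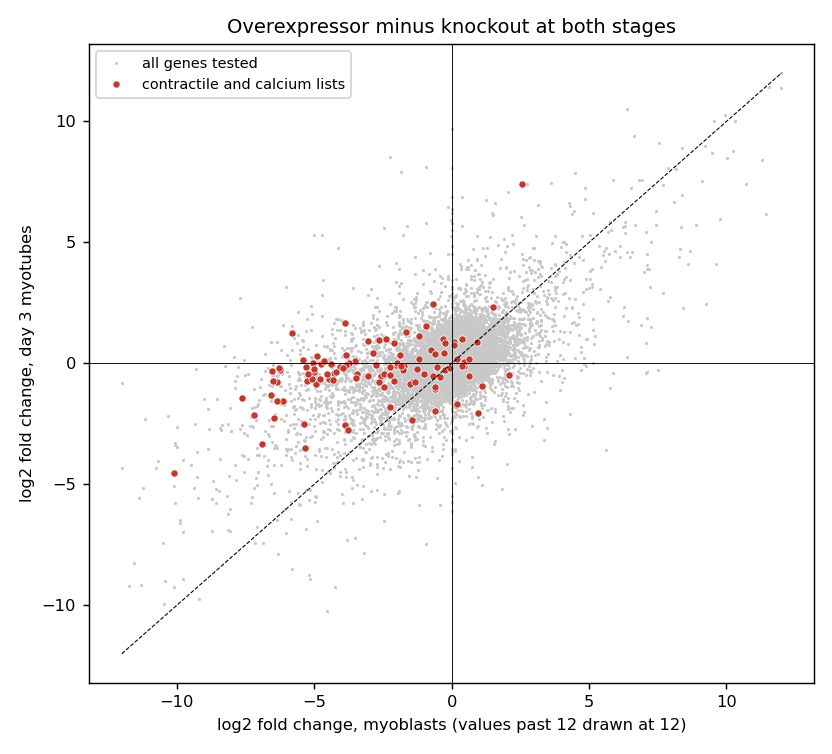
Each point is a tested gene, with its log2 difference (overexpressor minus knockout) in myoblasts on the x axis and in day 3 myotubes on the y axis; red points are genes of the 5 contractile and calcium lists and the dashed line marks equal differences. Most red points lie left of the vertical line and near the horizontal line, as the medians of -6.18 and -0.52 for myosin heavy chains show.

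Not all differences closed. Of the 3318 genes that differed by at least 2-fold in myotubes, 1652 were called in the same direction in myoblasts, 193 in the opposite direction and 1473 were not called. The 2 stages share no library, though they share the clones. Genes lower in overexpressor myotubes had the same call in myoblasts in 65.7% of cases and genes higher in 38.8%. Of the 3383 genes that differed by at least 2-fold in myoblasts, 1960 had the same call in myotubes, 306 the opposite call and 1117 none. Over all 3383 the median absolute log2 difference was 1.99 in myoblasts and 0.94 in myotubes. Since these genes were picked by the myoblast value, some decrease comes with the choice. The genes with the smallest adjusted p for the difference between stages include several that crossed over. Adam8, a membrane protease, stood at 79.6 ± 3.90 CPM in overexpressor and 4.01 ± 0.171 in knockout myoblasts, and at 3.98 ± 0.133 and 16.9 ± 1.86 in myotubes (difference of the changes -6.39 ± 0.12, adjusted p = 2.41e-16). Ddit4l, an inhibitor of mTORC1 signalling, stood at 1.96 ± 0.122 and 0.0394 ± 0.0234 CPM in myoblasts, the latter under the knockout floor of 0.0645 CPM. In myotubes Ddit4l stood at 1.23 ± 0.0395 and 14.7 ± 1.58 (-9.18 ± 0.30, adjusted p = 5.66e-13), so that the size of its difference of changes is uncertain. Fam167a moved in the other direction, from 12.5 ± 1.52 and 46.3 ± 0.592 CPM in myoblasts to 266 ± 0.389 and 102 ± 0.525 in myotubes (3.27 ± 0.11, adjusted p = 5.66e-13).

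Genes of mitochondrial respiration were lower in overexpressor myotubes as a broad group of modest differences. Of 36 subunits and factors of complex I 23 were lower and 1 higher (median -0.33), and of 42 genes of complexes II to V 26 were lower and 8 higher (median -0.40). The offset fit gave 20 lower and 4 higher for complex I and 25 and 7 for the others. Atp5b, the catalytic beta subunit of ATP synthase, stood at 1979, 1854 and 1733 CPM in the overexpressor against 3312, 3587 and 4001 in the knockout, without overlap (log2 difference -0.97 ± 0.078, adjusted p = 1.3e-08), and at 1785 ± 83.9 in the control. Ndufs7, a core iron-sulphur subunit of complex I, stood at 82.9 ± 8.63 against 167 ± 15.1 (log2 difference -1.01 ± 0.092, adjusted p = 6.75e-08), and Uqcrc1, a core subunit of complex III, at 230.1 ± 25.2 against 461 ± 68.4 (log2 difference -1.001 ± 0.10, adjusted p = 1.47e-07). The overexpressor levels of all 3 lay near the control means. Small subunits went the other way in part: Uqcrb (log2 difference 0.95 ± 0.15, adjusted p = 3.58e-05), Atp5k (log2 difference 0.66 ± 0.076, adjusted p = 1.16e-06) and Atp5j (log2 difference 0.53 ± 0.060, adjusted p = 9.03e-07) were higher, and for Uqcrb the offset fit gave 0.39, for Atp5k 1.02. Ndufs4 and Cox7b, called higher at 0.44 and 0.43, lost the call in the offset fit (log2 differences of 0.0039 and -0.060, adjusted p = 0.978 and 0.673). In myoblasts 29 of 36 complex I genes and 32 of 42 others were lower.

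Upstream of respiration, 16 of 41 genes of mitochondrial biogenesis and fat oxidation were lower and 8 higher (median -0.16, -0.25 in the offset fit). Ppargc1a (PGC-1 alpha), the coactivator that drives mitochondrial genes, stood at 0.802, 0.313 and 1.00 CPM in the overexpressor, 9.58, 7.95 and 5.85 in the knockout and 1.34 ± 0.258 in the control, a log2 difference of -3.48 ± 0.33 (adjusted p = 1.78e-07). The orphan receptor Esrrb was lower at 1.47 ± 0.0110 against 6.06 ± 1.17 CPM (log2 difference -2.04 ± 0.17, adjusted p = 1.61e-08), and Hadha, the alpha subunit of the trifunctional enzyme of fat oxidation, at 299 ± 0.372 against 676 ± 26.1 (log2 difference -1.18 ± 0.054, adjusted p = 1.08e-11). Cpt1a, which admits fatty acids to mitochondria, was higher (log2 difference 0.60 ± 0.10, adjusted p = 7.5e-05). Of 41 genes of energy buffering and glycolysis 16 were lower and 12 higher (median -0.087, -0.043 without overexpressor C; 14 and 17, with a median of 0.11, in the offset fit). The muscle glycogen phosphorylase Pygm (log2 difference -0.91 ± 0.12, adjusted p = 7.31e-06), the insulin-responsive glucose transporter Slc2a4 (log2 difference -1.52 ± 0.17, adjusted p = 5.82e-07) and Ldhb (log2 difference -1.53 ± 0.14, adjusted p = 5.13e-08), the lactate dehydrogenase form of oxidative fibres, were lower. Pfkp (log2 difference 1.37 ± 0.063, adjusted p = 1.06e-11), a phosphofructokinase, and the kinases Pdk1 (log2 difference 1.31 ± 0.11, adjusted p = 3.83e-08) and Pdk3 (log2 difference 0.97 ± 0.075, adjusted p = 7.6e-09), which switch off pyruvate dehydrogenase, were higher.

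Cell cycle genes did not move as a block. Of 40 DNA replication genes 19 were lower and 9 higher (median -0.16, -0.075 without overexpressor C). Of 35 mitosis genes 16 were higher and 10 lower (median 0.19, and -0.042 in the offset fit). The mitosis count fell to 10 higher and 9 lower in the offset fit and to 6 lower without overexpressor C, and the replication count to 6 higher and 19 lower in the offset fit. In myoblasts 19 replication and 22 mitosis genes were higher, and 3 replication genes were lower. Mki67, the proliferation antigen, stood at 25.8, 31.7 and 45.4 CPM in overexpressor A, B and C against 22.5, 15.2 and 12.02 (log2 difference 1.04 ± 0.27, adjusted p = 0.00392), and overexpressor C had the highest value; without it the log2 difference was 0.82 (adjusted p = 0.0184), and the offset fit gave 0.68. Cdk1, the mitotic kinase, was lower at 33.4 ± 3.90 against 49.2 ± 4.40 (log2 difference -0.56 ± 0.10, adjusted p = 0.000156), and the replication helicase subunit Mcm6 was lower at 45.2 ± 5.98 against 81.1 ± 5.03 (log2 difference -0.84 ± 0.088, adjusted p = 3.67e-07). Among 28 genes of cell cycle exit 10 were lower and 8 higher. The inhibitor Cdkn1a (p21) stood at 3088, 2982 and 2672 CPM against 4090.0, 4319 and 5152 (log2 difference -0.63 ± 0.10, adjusted p = 3.9e-05; -0.37 in the offset fit). Trp53 (p53) stood at 89.6 ± 11.6 against 187 ± 13.8 (log2 difference -1.06 ± 0.087, adjusted p = 1.89e-08), while cyclin D1 (Ccnd1) was higher at 47.2 ± 12.5 against 17.1 ± 3.25 (log2 difference 1.46 ± 0.20, adjusted p = 1.82e-05).

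Polycomb genes encode the repressor complexes that have been linked to Meg3 RNA. Of 33, 14 were higher and 7 lower (median 0.21; 14 and 7, with a median of 0.11, in the offset fit). The catalytic subunit Ezh2 stood at 18.1, 22.5 and 24.0 CPM in the overexpressor against 19.9, 17.5 and 13.7, a log2 difference of 0.34 ± 0.15 that did not pass (adjusted p = 0.0615), and the libraries overlap; it passed without overexpressor A or knockout A (adjusted p = 0.0205 and 0.0206). The accessory subunit Jarid2 was higher (log2 difference 0.68 ± 0.082, adjusted p = 1.84e-06) and Epop, another accessory subunit, was lower at 4.27 ± 0.625 against 10.9 ± 0.916 (log2 difference -1.35 ± 0.12, adjusted p = 5.53e-08). Mtf2 and Aebp2, further accessory subunits, were called higher at 1.58 and 0.73; the offset fit gave 0.69 for Mtf2 (1.05 without overexpressor C) and ended the call of Aebp2 (-0.0069, adjusted p = 0.936). Of 45 genes of chromatin remodelling and DNA methylation 19 were lower and 11 higher (median -0.13), and without overexpressor C 12 were lower. Smarcd3 (BAF60c), the remodeller subunit that marks muscle genes with Myod1, stood at 142, 126 and 123 CPM against 303, 326 and 357 (log2 difference -1.33 ± 0.080, adjusted p = 2.7e-10), and Hdac4 at 35.9 ± 1.25 against 62.4 ± 3.88 (log2 difference -0.80 ± 0.076, adjusted p = 1.09e-07). The methyltransferase Dnmt3a was higher at 37.4 ± 1.26 against 21.7 ± 2.83 (log2 difference 0.79 ± 0.085, adjusted p = 5.02e-07).

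Imprinted genes elsewhere in the genome differed in both directions. Of 26 tested, 15 were lower and 5 higher, with a median log2 difference of -0.61; the offset fit gave 14 and 3, and without overexpressor C 15 were lower and 3 higher. The largest difference of the list went up: Mest, a hydrolase-like protein made from the paternal copy, stood at 57.0, 80.1 and 56.9 CPM against 0.717, 1.04 and 0.669 and at 3.24 ± 0.587 in the control (log2 difference 6.31 ± 0.19, adjusted p = 9.87e-14). Its annotated exons overlap a gene on the other strand. Peg13, a noncoding RNA, was higher at 34.3 ± 1.43 against 5.58 ± 0.0677 (log2 difference 2.62 ± 0.079, adjusted p = 6.48e-14). Peg10, derived from a retrotransposon, stood at 8.13 ± 0.195 CPM against 62.4 ± 8.72 and 139 ± 6.20 in the control (log2 difference -2.94 ± 0.11, adjusted p = 1.25e-12), and its neighbour Sgce, epsilon-sarcoglycan, was lower too (log2 difference -1.34 ± 0.074, adjusted p = 1.11e-10; -2.13 in the offset fit). Igf2 was higher at 17.99 ± 1.22 CPM against 10.3 ± 1.75 (log2 difference 0.81 ± 0.13, adjusted p = 4.91e-05) but lower in myoblasts (-1.79 on the log2 scale, adjusted p = 1.43e-08), and the receptor Igf2r was lower (log2 difference -0.72 ± 0.066, adjusted p = 6.03e-08).

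Matrix and growth factor genes differed in both directions. Of 52 collagens and matrix genes 24 were lower and 19 higher (median 0.055, 0.026 in the offset fit and 0.087 without overexpressor C). Col18a1, whose fragment is endostatin, stood at 239.6, 203 and 204 CPM against 41.54, 42.7 and 44.998 (log2 difference 2.32 ± 0.074, adjusted p = 1.02e-13), and thrombospondin 1 (Thbs1) at 1758 ± 165 against 483 ± 68.5 (log2 difference 1.86 ± 0.11, adjusted p = 1.46e-10). The proteoglycan decorin (Dcn), which binds TGF-beta and myostatin, stood at 5.87, 4.99 and 8.74 CPM against 50.5, 51.2 and 42.8 (log2 difference -2.88 ± 0.17, adjusted p = 3.69e-10), although it was higher in overexpressor myoblasts (1.28, adjusted p = 4.78e-06), and laminin alpha 4 (Lama4) was lower (log2 difference -3.24 ± 0.14, adjusted p = 4.9e-12). Of 23 matrix proteases and inhibitors 10 were higher and 9 lower, with Timp1 (log2 difference 1.57 ± 0.089, adjusted p = 1.43e-10) among the higher. In the tendon and bone genes, 8 of 23 members of the adipocyte, bone and cartilage list were higher and 8 lower. Osteopontin (Spp1) stood at 889, 1283 and 1360.0 CPM against 142, 117 and 93.2 (log2 difference 3.33 ± 0.16, adjusted p = 1.31e-10) and the tendon factor scleraxis (Scx) at 452 ± 44.7 against 153 ± 7.75 (log2 difference 1.56 ± 0.090, adjusted p = 1.88e-10), while Tnmd, which scleraxis is known to activate in tendon, was off in the overexpressor as given above.

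Of 42 genes of TGF-beta, BMP and Id signalling 14 were higher and 15 lower (median -0.077, -0.13 in the offset fit and -0.015 without overexpressor C). Bmp4 stood at 0.609 ± 0.488 CPM in the overexpressor, 17.5 ± 3.56 in the knockout and 54.4 ± 1.83 in the control (log2 difference -4.87 ± 0.39, adjusted p = 9.85e-08). The latent TGF-beta binding protein Ltbp2 stood at 30.4 ± 6.64, 2.93 ± 0.189 and 28.6 ± 1.24 (log2 difference 3.37 ± 0.12, adjusted p = 7.87e-13). Inhbb, an activin subunit, was lower (log2 difference -1.53 ± 0.084, adjusted p = 9.83e-11) and the inhibitory Smad7 higher (log2 difference 1.00 ± 0.10, adjusted p = 1.13e-07). Of 38 Wnt genes 16 were lower and 11 higher; the R-spondin receptor Lgr6 was higher at 5.26 ± 1.39 CPM against 0.723 ± 0.153 (log2 difference 2.85 ± 0.21, adjusted p = 3.17e-09), and the ligand Wnt10a was lower (log2 difference -1.46 ± 0.12, adjusted p = 2.55e-08). Of 18 Notch genes 6 were lower and 5 higher, with the ligand Dll1 lower (log2 difference -1.39 ± 0.10, adjusted p = 4.83e-09) and the modifier Lfng higher (log2 difference 1.53 ± 0.12, adjusted p = 1.22e-08). Of 36 IGF and FGF genes 19 were lower and 11 higher (median -0.29). Igfbp5, a binding protein, stood at 2506 ± 145 CPM against 4596 ± 165 (log2 difference -0.87 ± 0.066, adjusted p = 5.48e-09). In myoblasts Igfbp5 was instead higher in the overexpressor, at 5516 ± 215 CPM against 3899 ± 181 (log2 difference 0.50 ± 0.065, adjusted p = 3.36e-06). It thus fell on differentiation in the overexpressor, while in control cells it rose from 736 ± 13.6 to 2190 ± 152 CPM. The receptor Igf1r stood at 66.1 ± 3.12 against 125 ± 14.8 (log2 difference -0.92 ± 0.075, adjusted p = 1.65e-08). Among 30 Hox and T-box genes 9 were higher and 9 lower, and 14 and 7 in the offset fit. Tbx1 (log2 difference -3.94 ± 0.22, adjusted p = 4.05e-10) and Tbx2 (log2 difference -3.92 ± 0.23, adjusted p = 1.66e-10) were lower and Tbx18 was higher (log2 difference 1.16 ± 0.12, adjusted p = 3.3e-07).

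Interferon genes were lower in overexpressor myotubes, in contrast to myoblasts. Of 38 genes of interferon response and antigen presentation 20 were lower and 5 higher in myotubes (median -0.47), and 7 were lower and 14 higher in myoblasts (median 0.22). The test of the difference between stages was past the threshold for 17 of them with the change on differentiation lower in the overexpressor and for 2 with it higher. Irf1 stood at 47.5, 45.9 and 42.1 CPM against 74.1, 80.7 and 81.7 (log2 difference -0.80 ± 0.10, adjusted p = 2.46e-06). Stat2 stood at 24.9 ± 0.497 against 40.6 ± 1.45 (log2 difference -0.71 ± 0.084, adjusted p = 1.64e-06) and the peptide-loading factor Tapbp at 100.5 ± 13.2 against 157 ± 9.64 (log2 difference -0.64 ± 0.10, adjusted p = 2.64e-05; -0.36 in the offset fit). Ifitm3, a membrane protein that blocks virus entry, was higher (log2 difference 0.91 ± 0.10, adjusted p = 9.62e-07). Stress pathways were mixed: of 34 genes of the integrated stress response 12 were higher and 10 lower, with 19 higher in the offset fit. Of 23 endoplasmic reticulum stress genes 12 were higher and 5 lower (median 0.31, 0.20 without overexpressor C; 9 and 7, with a median of 0.027, in the offset fit). Gdf15, a stress-induced hormone, was higher at 14.8 ± 1.98 CPM against 5.03 ± 0.783 but stood at 96.3 ± 8.98 in the control (log2 difference 1.56 ± 0.15, adjusted p = 1.33e-07). The splicing target Xbp1 was lower (log2 difference -0.49 ± 0.077, adjusted p = 3.4e-05), with -0.27 in the offset fit. Among 25 genes of atrophy and proteolysis 12 were lower and 3 higher (14 and 6 in the offset fit), including the metallothioneins Mt1 (log2 difference -1.34 ± 0.10, adjusted p = 8.32e-09) and Mt2 (log2 difference -1.39 ± 0.13, adjusted p = 1.22e-07). Of 24 cholesterol synthesis genes 10 were higher and 9 lower, and 6 and 6 in the offset fit.

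**Figure D4:**
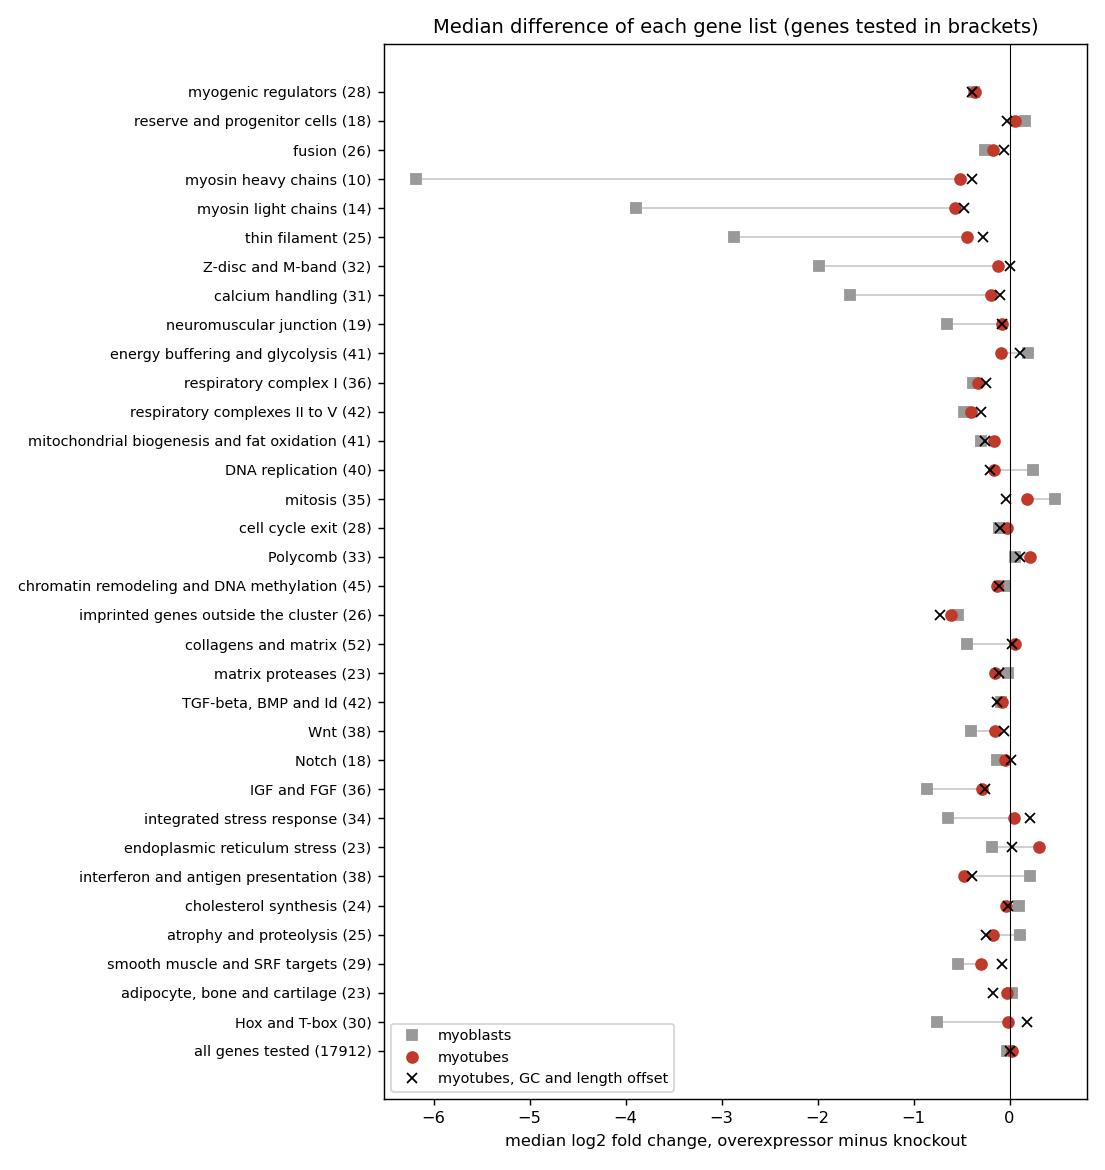
Median log2 difference (overexpressor minus knockout) of each gene list in myoblasts (squares), in myotubes (circles) and in myotubes with the GC and length offset (crosses), with the number of genes tested in brackets. Contractile lists lie furthest left in myoblasts and closer to 0 in myotubes (-0.56 for light chains), while respiration and imprinted genes lie left of 0 at both stages.

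The differences were also arranged along the chromosomes. The 177 windows of up to 100 neighbouring tested genes had medians in the offset fit from -0.60 to 0.48 in myotubes, and 24 lay more than 0.3 from 0. Window medians in myotubes and myoblasts had a Pearson r of 0.845 in the offset fit and 0.50 without it (n = 177 windows; the stages share the clones but no library). Chromosome 12, which holds the Meg3 region, had a median of 0.31 in myotubes and 0.21 in myoblasts over 647 genes, with 50.5% of its genes higher and 11.7% lower in myotubes. The window with the Meg3 region (chr12:102753275-112181747) stood at 0.41 and 0.24. The highest window was on chromosome 2 (chr2:121046111-129371139, from Tgm5 to Il1b), at 0.48 in myotubes and 0.40 in myoblasts. Chromosome 13 stood at 0.26 and 0.22, and chromosomes 14 and 10 stood below 0, at -0.29 and -0.25 in myotubes and -0.29 and -0.25 in myoblasts. The lowest window was on chromosome 5 (chr5:23915276-31571397, from Fam126a to AI839979, 100 genes), at -0.60 in myotubes and -0.54 in myoblasts, with 87.0% of its genes below 0 in myotubes. The next window of the same chromosome was also below 0 at both stages. Windows further along chromosome 5 lay on both sides of 0, up to 0.38 in myotubes (chr5:138441468-146847726). DNA was not measured in these libraries, and the part of gene position in the lists above was not tested.

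**Figure D5:**
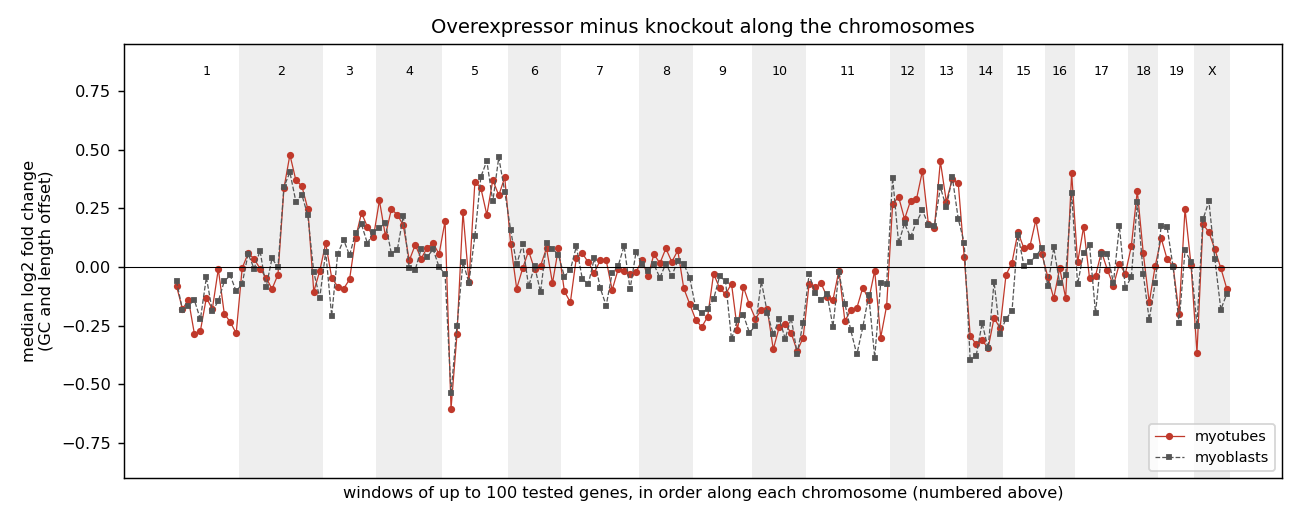
Median log2 difference (overexpressor minus knockout, offset fit) of windows of up to 100 neighbouring tested genes, in order along each chromosome, in myotubes (red circles) and myoblasts (grey squares). The 2 stages run together, with raised stretches on chromosomes 12 and 13 and in parts of chromosomes 2 and 5. Lowered stretches lie on chromosomes 10 and 14 and in an early part of chromosome 5.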

How the data were processed

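PolyA RNA of 18 C2C12 libraries was sequenced by the authors and deposited as raw counts per gene; a second deposited table of transformed values was not used. The submitters' processing notes name STAR 2.7.9a, Subread 2.0.3 with featureCounts, FastQC 0.11.7 and DESeq2 1.32.0 and the build mm10; the annotation, the strand setting and the treatment of reads with several matches are not given in the sources used here. The deposited counts were fitted with edgeR 4.0.16 (R 4.3.3, limma 3.58.1): TMM scaling, the filterByExpr filter by group, 1 coefficient for each of 6 groups over all 18 libraries (12 residual degrees of freedom), and the robust quasi-likelihood test. P-values were adjusted by Benjamini-Hochberg over the 17912 genes tested of 55450, with a threshold of 0.05. Values after ± are SD for CPM and standard errors for log2 differences. Names, positions and GC content came from GENCODE M21 on GRCm38, which matched 55190 genes, and promoter windows from RefSeq.

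Counts of the 18 pairs of libraries within a group had a chi-square of at least 4.72 per degree of freedom, where sampling noise gives about 1, so none was a copy of another. The fit was tested on simulated data for the myotube comparison, with 200 changed genes among 17247. Of those changed 2-fold 90.7% were called, and of those changed 4-fold 99.0%. The simulation had no GC trend, no library set apart and far fewer changed genes than the 59.7% called in the data. It therefore does not test the scaling or the calls under those conditions. The libraries, gene lists and tests were chosen with earlier results of these data known. Genes named were those of the Meg3 region, the 10 furthest changes each way at 5 CPM or more whose libraries do not overlap (symbols of the Gm, Rik and similar kinds left out), up to 4 each way in each list by adjusted p, 13 fixed muscle and Polycomb genes, and the 10 lowest adjusted p-values of the difference between stages; a few others are marked where they stand, and some genes that the rule picks are not reported here. The alternatives were other scalings, no filter, DESeq2 1.42.0, fewer libraries, a test against a 2-fold change, the replicate letter as a block and, added after the data were seen, the GC and length offset and the removal of overexpressor C and knockout A.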

Additional observations from a re-analysis of the deposited data

Results flagged for a closer look

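The change from myoblast to myotube differed between the clones for 106 of the 156 genes named here and tested, by edgeR's quasi-likelihood test of the difference itself. Values are given for the 5 whose difference of changes is printed above; each is the log2 change in the overexpressor minus that in the knockout. Myh3, embryonic myosin, rose more in the overexpressor (5.94 ± 0.29, adjusted p = 5.78e-10), as did Tnnt2, cardiac troponin T (3.89 ± 0.13, adjusted p = 5.96e-13). For both the clones lay far apart as myoblasts and closer as myotubes. Fam167a (3.27 ± 0.11, adjusted p = 5.66e-13) also rose more in the overexpressor. The protease gene Adam8 (-6.39 ± 0.12, adjusted p = 2.41e-16) and Ddit4l, an inhibitor of mTORC1 (-9.18 ± 0.30, adjusted p = 5.66e-13), went the other way. Ddit4l was under the floor in knockout myoblasts, so the size of its value is uncertain. The direct test covers 1 clone of each kind, so clone and edit cannot be told apart here either.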

How the results depend on the processing

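The number of genes called in myotubes, 10692, was 8392 to 10649 under other scalings, no filter, DESeq2, fewer libraries, the offset fit and with single libraries left out (9233 to 10649), but 1403 in the test against a 2-fold change. The counts for myoblasts and for the difference between stages stayed within 1.5 times theirs under each alternative run. The share of higher genes among those called was 51.2% and, with library totals in place of TMM, 60.0%, where the median over all genes was 0.12 and not 0.021. Replicate letters are shared between the clones but do not pair the libraries: overexpressor and knockout myotubes of the same letter deviated from their group means with correlations of -0.358, 0.0743 and -0.331 for A, B and C, and not every library correlated best with its own letter. With the letter as a replicate block 10235, 9085 and 7720 genes were called in myotubes, myoblasts and the difference between stages, and no gene named here changed its call. Of 156 genes named and tested, 141 kept direction and call under each alternative but that test, which called 91 as before. The offset fit turned the sign of Aebp2 (-0.0069), Cox7b (-0.060), Mef2c (-0.76), Myf5 (-0.51) and Mymx (0.19), and without overexpressor C it gave -0.86, -0.52 and 0.18 for the last 3. Mef2c was at -0.14 without overexpressor C and knockout A, and between -0.35 and 0.28 with single libraries left out, as Myf5 was between -0.16 and 0.25. Apart from the test against a 2-fold change, Acta1 lost its call only with both the offset applied and overexpressor C left out (-0.56, adjusted p = 0.0587), and Mymk and Myh3 gained one in the fit of the 6 myotube libraries (-0.37 and -0.28, edgeR adjusted p = 0.039 and 0.0282). Mymk also passed with DESeq2 and without overexpressor A or knockout A (edgeR adjusted p = 0.0488 and 0.0443). Wars passed with library totals and without overexpressor C or knockout C (adjusted p = 0.00258, 0.00924 and 0.044), and Dync1h1 and Ezh2 with library totals (adjusted p = 0.0381 and 0.0298). Some list counts moved by more than 1.5 times, in addition to those in the report. Library totals gave 8 higher genes of the Meg3 region in place of 5, 5 higher regulators in place of 3, 8 higher interferon genes in place of 5, 4 higher complex I genes in place of 1 (also 4 in the offset fit), and 5 lower cholesterol genes in place of 9. The 6 myotube libraries alone gave 7 higher and 11 lower chromatin genes in place of 11 and 19, 6 lower mitosis genes in place of 10 and 5 lower cholesterol genes. Without knockout C, 9 mitosis genes were higher in place of 16, 5 Hox and T-box genes in place of 9, and 7 chromatin genes. Higher imprinted genes numbered 3 in place of 5 without overexpressor C, knockout B or knockout C, and without overexpressor B the lineage markers outside muscle were 4 higher and 2 lower in place of 2 and 4. Of the myotube markers, 6 were lower, and 3 in the offset fit, with no filter and without overexpressor C. The cause of these moves was not tested. Depth limits the genes at or under 3 reads a library, where a fold is a bound.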

Other observations

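Genes of neighbouring mesenchymal lineages, of 23 tested in the list, split evenly, with 8 higher and 8 lower in overexpressor myotubes (median -0.030, -0.18 in the offset fit). The fat cell factor Cebpa stood at 6.57 ± 1.11 CPM against 21.3 ± 1.05 (log2 difference -1.70 ± 0.11, adjusted p = 1.01e-09), and lipoprotein lipase (Lpl) at 2.61 ± 0.655 against 8.15 ± 1.67 (log2 difference -1.64 ± 0.17, adjusted p = 3.09e-07). The bone factors Runx2, at 27.0 ± 1.04 against 13.3 ± 1.96 (log2 difference 1.02 ± 0.085, adjusted p = 2.05e-08), and Dlx3, at 8.64 ± 2.33 against 2.63 ± 0.288 (log2 difference 1.72 ± 0.16, adjusted p = 1.25e-07), were higher. The platelet-derived growth factors Pdgfa (log2 difference 1.01 ± 0.063, adjusted p = 5.08e-10) and Pdgfb (log2 difference 1.22 ± 0.12, adjusted p = 1.86e-07) were higher, and the receptor Pdgfrb was lower (log2 difference -0.52 ± 0.067, adjusted p = 3.87e-06). In cholesterol synthesis the early enzyme Hmgcs1 was higher (log2 difference 1.03 ± 0.16, adjusted p = 5.77e-05; 0.59 in the offset fit), while Mvd (log2 difference -0.91 ± 0.11, adjusted p = 1.49e-06), Fdft1 (log2 difference -0.62 ± 0.089, adjusted p = 1.3e-05) and Dhcr7 (log2 difference -0.64 ± 0.094, adjusted p = 1.62e-05; -0.41 in the offset fit) were lower. Enzymes of the pathway lay on both sides of 0.

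Some classes of noncoding genes were uneven in direction, while antisense genes split evenly, with 79 higher and 79 lower of 562 (98 and 80 in the offset fit). Of 577 lincRNAs tested 158 were higher and 93 lower in overexpressor myotubes (median log2 difference 0.25), and 137 and 105 in the offset fit. Of 348 transcripts that the annotation lists as still to be checked 79 were higher and 16 lower (53 and 30 in the offset fit). Of 1912 processed pseudogenes 319 were higher and 513 lower (309 and 377 in the offset fit), and their reads may be shared with their parent genes. Protein-coding genes stood at 4690 higher and 4413 lower of 13736.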
